A study of Mus musculus with 15 samples.

Results

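The 6 genes described here are Crxos1, Obox1, Obox3, Obox5, Obox6 and Duxbl, homeobox genes of the oocyte and early embryo, among the 26061 genes measured by RNA-seq in mouse embryonic stem cells (ESCs). They were taken by name. Crxos1 was chosen by its own values in these data, namely its rise in TET2-depleted over control ESCs. The others were added as related homeobox genes, with earlier results of these data known. For that reason the values of all 6 in that comparison, and those of Crxos1 wherever the TET2-depleted libraries enter, are given as a description with no test. E14 ESCs of the 129/Ola background, grown without feeders in serum and LIF, were transduced with lentiviral pLKO.1 vectors and collected following 3 days of puromycin selection. The 15 libraries comprised 5 with a non-targeting hairpin (shScr), 5 with a hairpin against Tet1 (shTet1) and 5 with a hairpin against Tet2 (shTet2). Each target was depleted with 1 hairpin sequence in populations of transduced cells, so effects of the hairpin itself and of the depletion cannot be told apart, and both Tet genes stayed intact in the genome of every group. The labels do not state whether replicates were separate transductions, so p-values measure only the spread between these libraries.

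Homeobox genes encode transcription factors that bind DNA through a homeodomain, a fold of helices in which the third helix lies in the major groove and reads the bases. The Obox (oocyte-specific homeobox) genes form a rodent family transcribed in oocytes and cleavage embryos. Crxos1 lies head to head with Crx, the cone-rod homeobox gene of photoreceptors, and encodes a protein with a pair of homeodomains. Duxbl is related to Dux, a double homeobox gene known as an activator of 2-cell embryo genes and of MERVL retroviruses. A small fraction of cultured ESCs passes through a 2-cell-like state in which such genes are transcribed. TET1 and TET2 oxidise 5-methylcytosine, which in mammals lies mostly at CG dinucleotides.

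The coding bases around the third helix show how the 6 genes are related, and they are printed here because near-identical sequence decides how far reads of these genes can be told apart. Each stretch of 60 bases was read from the mm9 genome along the GENCODE transcript and is interrupted by an intron, so its coordinates span more than 60 bases. Capitals mark 6 codons starting with those for tryptophan and phenylalanine.
Obox1 (chr7:16141027-16141532, plus strand): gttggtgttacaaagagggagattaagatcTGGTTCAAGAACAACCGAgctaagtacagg
Obox3 (chr7:16211642-16212171, minus strand): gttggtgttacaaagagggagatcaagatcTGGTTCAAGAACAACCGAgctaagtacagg
Obox5 (chr7:16343401-16343920, plus strand): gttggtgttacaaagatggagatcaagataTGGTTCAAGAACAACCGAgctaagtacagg
Obox6 (chr7:16419267-16419755, minus strand): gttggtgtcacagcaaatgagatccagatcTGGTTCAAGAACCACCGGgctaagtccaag
Duxbl, first homeobox (chr14:26803760-26806283, plus strand): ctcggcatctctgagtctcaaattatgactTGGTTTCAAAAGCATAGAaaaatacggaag
Duxbl, second homeobox (chr14:26807073-26808277, plus strand): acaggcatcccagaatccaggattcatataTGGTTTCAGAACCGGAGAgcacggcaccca
Crxos1, first homeobox (chr7:16482875-16483826, plus strand): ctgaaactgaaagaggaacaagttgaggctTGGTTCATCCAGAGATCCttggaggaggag
Crxos1, second homeobox (chr7:16488330-16489081, plus strand): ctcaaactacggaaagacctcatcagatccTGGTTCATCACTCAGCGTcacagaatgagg
Obox3 carried the same base as Obox1 at 98.3% of these positions, Obox5 at 95% and Obox6 at 80%. For Duxbl the shares were 46.7% and 50%, and for Crxos1 40% and 38.3%. The codon that follows tryptophan and phenylalanine was a lysine codon in all 4 Obox genes, a glutamine codon in both homeoboxes of Duxbl and an isoleucine codon (atc) in both of Crxos1. A search for tryptophan, phenylalanine, any residue, asparagine, any residue and arginine found 1 match in each Obox protein and in Duxbl and 0 in Crxos1. The first Duxbl stretch and both Crxos1 stretches were found with a wider pattern chosen after the coding sequences had been seen. The annotated proteins have 246 residues for Crxos1, 204 for Obox1, 335 for Obox3, 291 for Obox5, 347 for Obox6 and 350 for Duxbl.

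All but Duxbl lie together on chromosome 7. With Obox2 and Crx they fall within 15939386 to 16489379 (mm9), a span of 550.0 kb. Crxos1 (chr7:16467966-16489379, plus strand) starts 2648 bases from the start side of Crx (minus strand). Beyond the other end of Crxos1, at 13177 bases, lies the end side of Sepw1 (minus strand). Obox6 occupies chr7:16418595-16425027 on the minus strand, and Obox5 chr7:16335483-16345149 on the plus strand. Obox1 (chr7:16097689-16142215, plus strand) lies inside the span of Obox3 (chr7:16065174-16225251, minus strand), with 0 exonic bases in common. Duxbl stands apart on chromosome 14 (chr14:26798063-26809574, plus strand), 22206 bases from Cphx, another homeobox gene of the embryo.

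The 250 bases before the annotated start held few CG dinucleotides in all 6 genes, a property that the choice of genes did not use. The promoters of Crxos1, Obox6 and Duxbl are printed because these 3 genes had non-overlapping values between shTet2 and shTet1, and capitals mark each CG.
Crxos1 (chr7:16467716-16467965, plus strand): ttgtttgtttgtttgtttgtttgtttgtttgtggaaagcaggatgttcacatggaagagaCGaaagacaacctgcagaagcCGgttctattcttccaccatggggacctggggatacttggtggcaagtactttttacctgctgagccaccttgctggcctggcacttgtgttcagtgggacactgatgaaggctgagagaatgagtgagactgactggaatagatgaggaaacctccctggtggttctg
Obox6 (chr7:16425028-16425277, minus strand): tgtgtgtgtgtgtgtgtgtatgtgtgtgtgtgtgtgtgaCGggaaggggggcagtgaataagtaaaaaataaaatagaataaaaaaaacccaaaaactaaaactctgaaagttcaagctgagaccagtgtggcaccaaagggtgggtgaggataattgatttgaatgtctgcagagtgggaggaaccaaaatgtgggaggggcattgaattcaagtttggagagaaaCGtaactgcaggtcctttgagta
Duxbl (chr14:26797813-26798062, plus strand): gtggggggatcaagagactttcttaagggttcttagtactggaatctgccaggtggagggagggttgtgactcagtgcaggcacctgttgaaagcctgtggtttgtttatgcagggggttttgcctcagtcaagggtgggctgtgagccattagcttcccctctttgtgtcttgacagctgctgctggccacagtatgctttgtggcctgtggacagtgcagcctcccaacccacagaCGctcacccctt
There were 2 CG in Crxos1, Obox1, Obox5 and Obox6, 1 in Duxbl and 0 in Obox3, against a median of 7 over 25804 promoters of the same length. Of all promoters, 25.7% had 2 or fewer and 7.56% had 0. TAATCC, a core of sites bound by homeodomains with lysine at the recognition position, was searched on both strands and occurred once, upstream of Obox3, as it did in 6.83% of all promoters. CCAAT was present only upstream of Obox5 among the 6, where 2 matches were found, and in 34.7% of all promoters. The core GATTNAATC of Dux sites was in none of the 6 windows and in 0.264% of all promoters.

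Depth and labels were examined first. The libraries held between 15258291 and 35432425 reads in genes, the fewest in shTet2 replicate 3. Tet1 fell by 1.84 in shTet1 relative to shScr (SE 0.19, limma with Benjamini-Hochberg adjusted p = 0.000228), with 3437 to 6037 reads a library against 11484 to 16373. Tet2 fell by 1.90 in shTet2 (SE 0.13, adjusted p = 3.67e-07, same fit), with 2084 to 4921 reads against 7695 to 10850. All 9 ESC marker genes were read in every group, and their summed level ranged from 90057 to 139340 normalised reads. The 9 oocyte markers summed to only 102 to 130 normalised reads in shScr, 49.6 to 109 in shTet1 and 121 to 162 in shTet2. Oosp1 was at 0 reads in every library and Zp1 in all of shScr, and Bmp15 was the 1 oocyte marker past the threshold, between shTet2 and shTet1. The 6 photoreceptor markers, relevant to the neighbour Crx, summed to 39.0 to 64.0 in shScr, 18.2 to 76.7 in shTet1 and 26.2 to 100.6 in shTet2, with Rcvrn at 0 in the first 2 groups and Nrl in shTet1. Markers of primitive endoderm summed to 264 to 652, 242 to 454 and 92.3 to 284, those of trophoblast to 63.2 to 166, 135 to 229 and 94.8 to 262, and those of fibroblasts to 59.0 to 264, 129 to 157 and 198 to 212, with Lum at 0 throughout. Of these last 3 lists only Eomes passed the threshold, between shTet2 and shTet1. The part of these cells in the results below was not tested. In all 3 groups the main component of variation within groups (37.9% of it) set replicates 1 and 2 apart from replicates 3 to 5, a division that the labels do not describe.

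Duxbl, Crxos1 and Obox6 were transcribed at a level that every group could measure, and the other 3 genes were close to the detection limit. On the scale of normalised reads per kb of exons, control ESCs had most Duxbl, at 22.4 ± 6.60 (SD, n = 5), followed by Crxos1 at 12.9 ± 3.03 and Obox6 at 11.2 ± 8.02. Obox3 stood at 1.36 ± 1.22, Obox1 at 0.547 ± 0.910 and Obox5 at 0.422 ± 0.578. Each neighbouring pair in this order had overlapping libraries in shScr. In shTet2 the order of the first pair was exchanged, with Crxos1 at 49.3 ± 12.9 normalised reads per kb and Duxbl at 39.7 with an SD of 12, and these too overlapped. Obox6 followed at 25.4 ± 9.58, and no shTet2 library of Obox6 was as low as any of Obox3, which stood at 2.36 ± 1.47. The same gap separated Obox6 from Obox3 in shTet1, at 7.71 ± 2.09 and 0.972 ± 1.33. In bulk samples a change in the number of cells that transcribe a gene and a change in the amount of RNA per cell cannot be told apart.

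**Figure D1:**
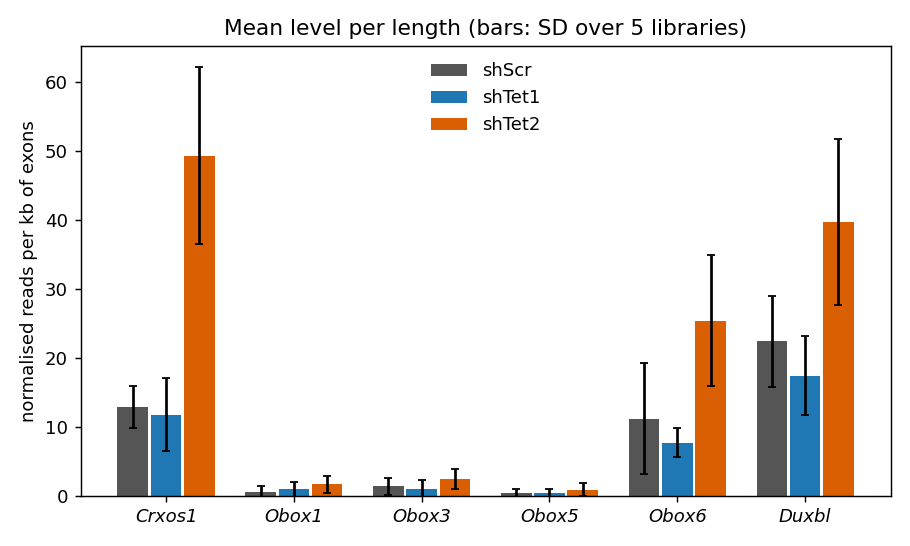
Mean level of each gene in normalised reads per kb of exons (vertical axis) in shScr, shTet1 and shTet2, with bars for the SD over 5 libraries. Crxos1 stands at 12.9, 11.7 and 49.3, Duxbl at 22.4, 17.4 and 39.7, and Obox1, Obox3 and Obox5 stay under 3 in every group.

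The first question was whether TET1 depletion changed any of the 6 genes. The deposited values are on a scale close to log2, on which 0 reads correspond to 4.25. Crxos1 stood at 5.87, 6.02, 6.24, 6.38 and 6.19 in shScr replicates 1 to 5, and at 6.43, 5.85, 5.60, 5.88 and 6.40 in shTet1. The shTet1 libraries fell on both sides of the shScr range. The difference was -0.11 (SE 0.20, limma, Benjamini-Hochberg adjusted p = 0.899), with a 95% interval from -0.53 to 0.31. Duxbl read 6.87, 7.42, 7.13, 7.48 and 6.72 in shScr and 6.51, 6.75, 7.06, 7.31 and 6.62 in shTet1. Each shTet1 library of Duxbl was below the shScr library of the same number, yet the groups overlapped and the difference of -0.27 (SE 0.21, 95% interval -0.71 to 0.16) had an adjusted p of 0.674 in the same limma fit. Obox6 read 5.28, 4.25, 5.65, 5.93 and 5.54 with shScr, where replicate 2 had 0 reads, and 5.25, 5.10, 5.28, 5.29 and 5.48 in shTet1. Its difference was -0.05 (95% interval -0.57 to 0.47). For Obox1, Obox3 and Obox5 the differences were 0.12, -0.19 and -0.01. Within replicates 1 and 2 Obox6 differed by 0.41, Crxos1 by 0.20 and Obox1 by -0.12. Within replicates 3 to 5 the signs were the opposite, at -0.36, -0.31 and 0.27. Duxbl (-0.52 and -0.11) and Obox3 (-0.29 and -0.13) were lower in both sets. In this comparison 0 of the 6 genes had an unadjusted p under 0.05 in limma, where 11.8% of all genes had. At an adjusted p of 0.05 in the same fit, 0 of the 6 passed, where 0.0718% of all 19490 genes tested were called. With the replicate number as a block, which raised the count over all genes from 14 to 935, it was 0 of 6 as well. Exact permutation tests of 5 against 5 libraries, two-sided, gave p-values from 0.214 for Duxbl to 1 for Obox5. The intervals reached lowest for Obox3 (-0.68) and Duxbl (-0.71), the widest was that of Obox6, and a missed threshold does not show that the groups were alike.

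**Figure D2:**
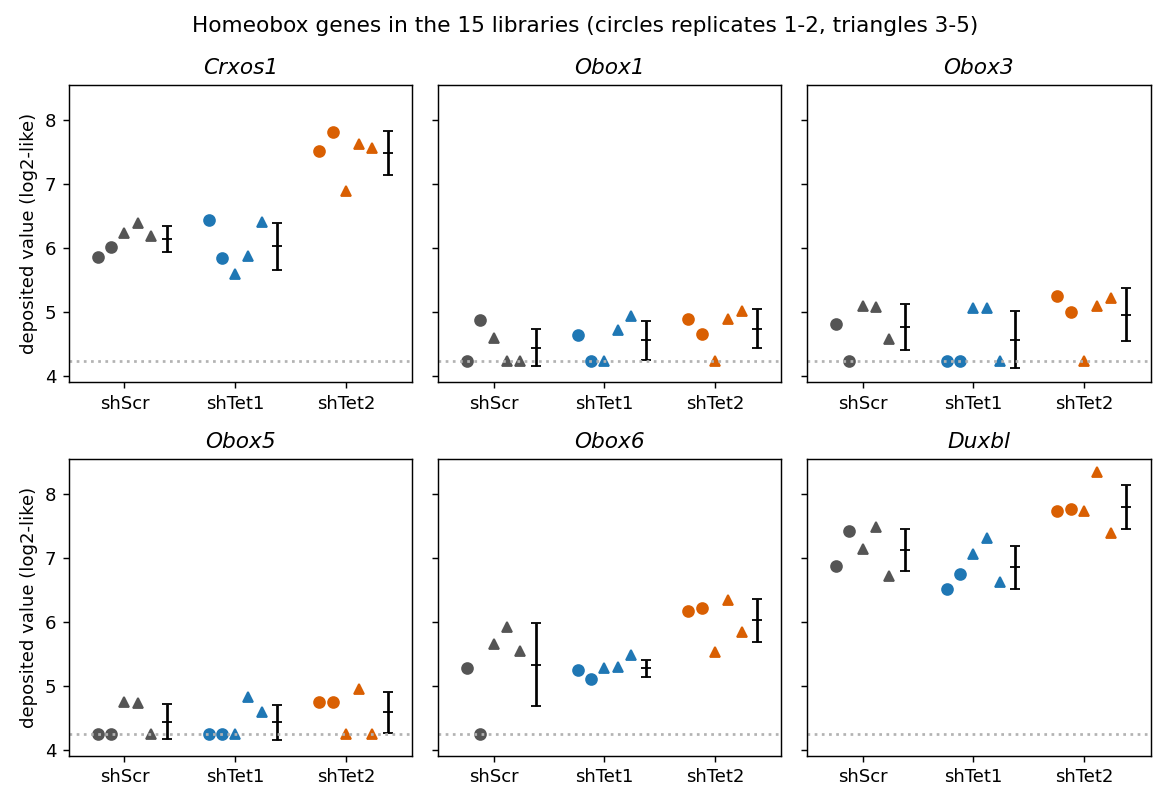
Deposited value (log2-like units, vertical axis) of each gene in the 15 libraries by group, with circles for replicates 1 and 2, triangles for replicates 3 to 5, and black bars for the mean and SD. The dotted line marks 0 reads (4.25). Crxos1 in shTet2 runs from 6.90 to 7.81, above every other library, whereas Obox1, Obox3 and Obox5 sit on or near the dotted line.

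TET2 depletion was the comparison in which Crxos1 had been picked, and its values are described without a test. In shTet2 replicates 1 to 5 Crxos1 read 7.51, 7.81, 6.90, 7.62 and 7.56. All 5 were above the highest shScr library at 6.38. These values rest on 185, 244, 57, 282 and 136 reads, against 26, 26, 37, 45 and 39 in shScr, and the mean of the normalised reads was 3.82 times that of shScr. Crxos1 was 1 of the 6 genes with an adjusted p under 0.05 in limma, a threshold that 0.39% of all genes passed, and 1 of the 6 whose shTet2 values all exceeded the shScr values, as did 1.75% of all genes. Since the choice of genes used this contrast, nothing is read from either count.

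The other genes had smaller differences in the same comparison. Duxbl read 7.73, 7.76, 7.73, 8.33 and 7.38 in shTet2, where only replicate 5 lay below the highest shScr libraries. Its difference was 0.66 and its ratio of mean normalised reads 1.77. Obox6 read 6.16, 6.22, 5.54, 6.35 and 5.84 in shTet2, and replicates 3 and 5 fell within the shScr range. The Obox6 difference of 0.69 was 1.43 within replicates 1 and 2 and 0.20 within replicates 3 to 5. The shScr library without an Obox6 read is in the first of these sets. For Crxos1 the corresponding values were 1.71 and 1.09, and for Duxbl 0.60 and 0.70. Obox3 and Obox5 differed by 0.59 and 0.50 within replicates 1 and 2 and by -0.07 and -0.10 within replicates 3 to 5.

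The direct comparison of shTet2 with shTet1 asked whether the depletions differed for these genes. Duxbl was higher in shTet2, although it had been listed with earlier results of these libraries known. The values of Obox6 in shTet2 were also all above those in shTet1, but Obox6 passed the threshold in only some fits. For Duxbl the difference was 0.94 (SE 0.21) at a Benjamini-Hochberg adjusted p of 0.0133 in limma, and the lowest shTet2 library at 7.38 exceeded the highest shTet1 library at 7.31. The adjusted p of Duxbl stayed under 0.05 in each of 25 alternative fits, with values from 0.000209 to 0.0426. The Duxbl difference was 1.12 within replicates 1 and 2 and 0.82 within replicates 3 to 5. Obox6 differed by 0.74 (SE 0.25, 95% interval 0.23 to 1.26) at an adjusted p of 0.108 in limma. Its lowest shTet2 library at 5.54 was above the highest shTet1 library at 5.48. With the replicate block the adjusted p of Obox6 was 0.0436, and it was 0.0184 without shScr replicate 2, the library with no Obox6 read. Without the 4 libraries of high receptor share described below it was 0.359. Within replicates 1 and 2 the Obox6 difference was 1.02, and within replicates 3 to 5 it was 0.56. Exact permutation tests gave p = 0.00794 for both Duxbl and Obox6, or 0.0437 after Benjamini-Hochberg adjustment over only the 11 exact tests run. The first value is the smallest that 5 against 5 libraries allow, and it restates the lack of overlap. Obox6, like Duxbl, had been listed with earlier results of these libraries known, so neither p-value is independent evidence.

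The remaining Obox genes did not pass the threshold between shTet2 and shTet1. Obox3 differed by 0.39 (95% interval -0.10 to 0.88), Obox1 by 0.18 (-0.20 to 0.57) and Obox5 by 0.16 (-0.22 to 0.53). Exact permutation p-values for these 3 were 0.175, 0.381 and 0.444. Crxos1, described without a test because its shTet2 values had led to its choice, differed by 1.45, by 1.52 within replicates 1 and 2 and by 1.40 within replicates 3 to 5. Of the 5 other genes 1 was called in limma, where 4.24% of all genes were (827 genes, or 2178 and 11.2% with the replicate block), and 2 of the 5 (Obox6 and Duxbl) had all shTet2 values above all shTet1 values, as did 3.6% of all genes. The comparisons share libraries, so their values are set side by side and no relation between them is drawn.

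**Figure D3:**
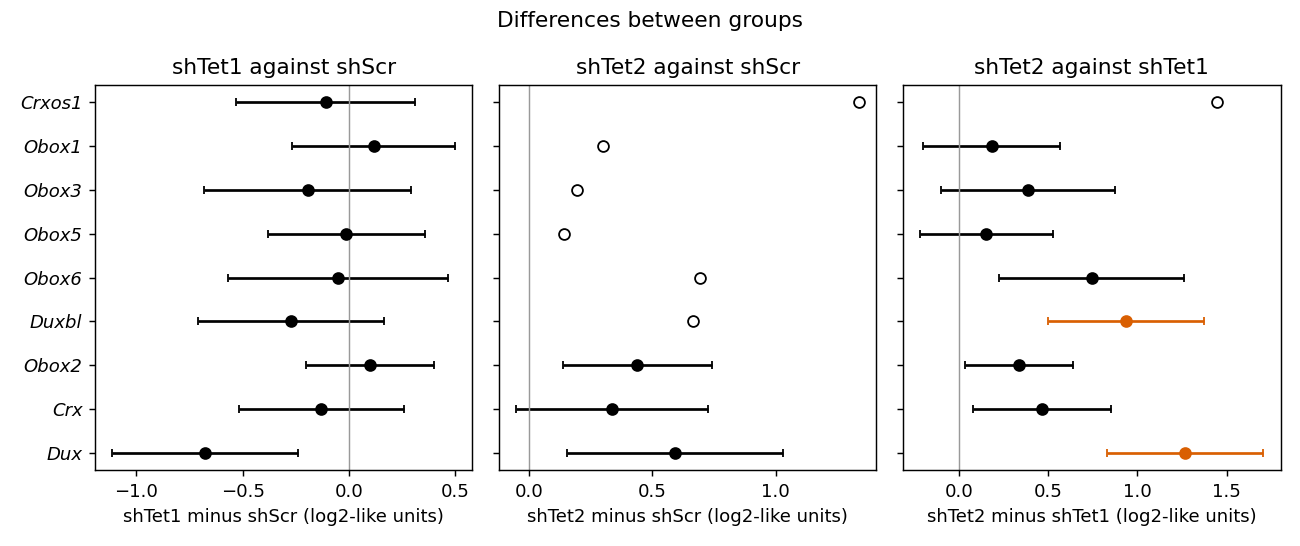
Difference between group means (log2-like units, horizontal axis) for the 6 genes and for Obox2, Crx and Dux in 3 comparisons, with 95% intervals from limma. Orange marks an adjusted p under 0.05, and open circles without an interval mark values that were not tested. Duxbl (0.94) and Dux (1.27) are orange between shTet2 and shTet1, and none is orange between shTet1 and shScr.

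Obox1, Obox3 and Obox5 were represented by so few reads that totals over a group say more than single libraries. In the order of replicates 1 to 5, Obox3 had 3, 0, 6, 6 and 1 reads with shScr, 0, 0, 5, 6 and 0 with shTet1, and 12, 7, 0, 12 and 8 with shTet2. In 4 of the 5 shTet2 libraries there were more reads than in any other library, before scaling for depth, and replicate 3 had none. After scaling this no longer held. The shTet2 libraries had 9.50, 5.39, 0, 6.850 and 8.95 normalised reads, against up to 6.855 in shScr and 6.387 in shTet1. Relative to 1000000 gene reads (RPM), Obox3 amounted to 0.158 in shScr (95% exact Poisson interval 0.0901 to 0.256), 0.0959 in shTet1 (0.0479 to 0.172) and 0.315 in shTet2 (0.224 to 0.431). Obox1 had 0, 3, 1, 0 and 0 reads with shScr, 2, 0, 0, 2 and 4 with shTet1, and 5, 2, 0, 7 and 5 with shTet2. That is 0.0394 RPM in shScr (0.0107 to 0.101), 0.0697 in shTet1 (0.0301 to 0.137) and 0.154 in shTet2 (0.0925 to 0.240). Obox5 was the rarest, with 4, 4 and 14 reads over the 5 libraries of shScr, shTet1 and shTet2. Its level in RPM was 0.0394 (0.0107 to 0.101), 0.0349 (0.00950 to 0.0893) and 0.113 (0.0619 to 0.190), and 8 of the 14 shTet2 reads came from replicate 4, the deepest library. These intervals cover counting error only. Obox2, the closest relative of Obox1, had 0 reads in all shScr libraries, where the floor of 3 reads is 0.0296 RPM and the upper limit of the exact Poisson interval 0.0363 RPM, 3 reads in shTet1 and 15 in shTet2. In shTet2 Obox2 stood at 0.121 RPM (0.0679 to 0.200), which is 4.11 times the floor of 3 reads over the shScr group. That ratio takes no account of counting error in shTet2 and is not a lower limit. In limma Obox2 did not pass the threshold in any comparison (difference between shTet2 and shScr 0.44, Benjamini-Hochberg adjusted p = 0.205).

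**Figure D4:**
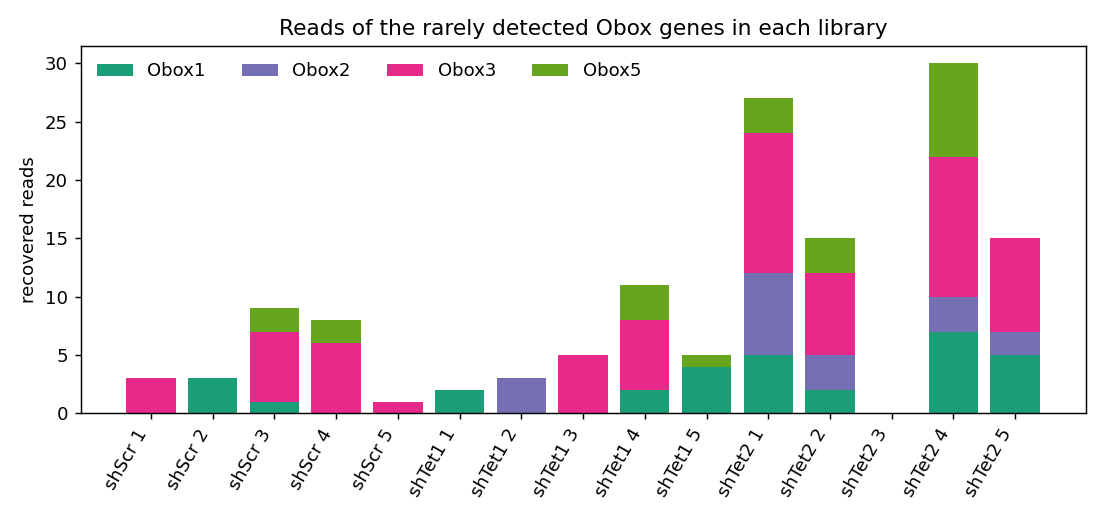
Recovered reads (vertical axis, stacked) of Obox1, Obox2, Obox3 and Obox5 in each of the 15 libraries, not scaled for depth. The totals were 24, 26 and 87 reads over shScr, shTet1 and shTet2, and shTet2 replicate 3, the library of lowest depth, had none.

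Reads of several of these genes could come from near-identical copies. Of all stretches of 75 bases (the read length) in the exons of Duxbl, 89.0% also occurred elsewhere in the genome, in the predicted genes Gm10391 and Gm10394. For Obox1 the share was 56.0%, all of it in Obox2, and for Obox3 50.7%, mostly outside annotated genes. It was 24.0% for Crxos1, 7.09% for Obox5 and 0% for Obox6. Copies inside a gene's own annotated span were not counted, so these shares are minimum values. The span of Obox3 includes Obox1, and stretches common to these genes are missing from the share of Obox3. The alignment kept 1 location for each read, so the values of Duxbl are uncertain as to their source. Gm10391 and Gm10394 differed between shTet2 and shTet1 by 0.86 and 0.88 (limma with Benjamini-Hochberg adjusted p = 0.0122 and 0.0126). Summed over all 3 copies the normalised reads came to 341 ± 76.8 (SD, n = 5) with shScr, to 274 ± 82.9 with shTet1 and to 592 ± 157 with shTet2. The lowest shTet2 sum was 416 and the highest shTet1 sum 395.

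Duxbl also moved with a property of the libraries. Genes for olfactory and vomeronasal receptors (1448 in the table) act in sensory neurons. Their reads made up 11.1 to 26.5 RPM in 11 libraries and 54.5 to 64.7 in 4 (shScr replicate 4, shTet1 replicates 3 and 4, and shTet2 replicate 4). The correlation of Duxbl with this share on a log2 scale, over 15 libraries and after subtraction of the group means, was 0.83. For Crxos1 it was -0.21, for Obox6 0.32, for Obox3 0.57 and for Obox5 0.50. These are descriptions over libraries that share preparation and depth. Without the 4 libraries, a setting chosen after seeing the data, Duxbl differed by 1.02 between shTet2 and shTet1 (limma with Benjamini-Hochberg adjusted p = 0.0220), and 0.61 was its difference between shTet2 and shScr. Crxos1 then differed from shScr by 0.15 in shTet1, against -0.11 over all libraries.

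**Figure D5:**
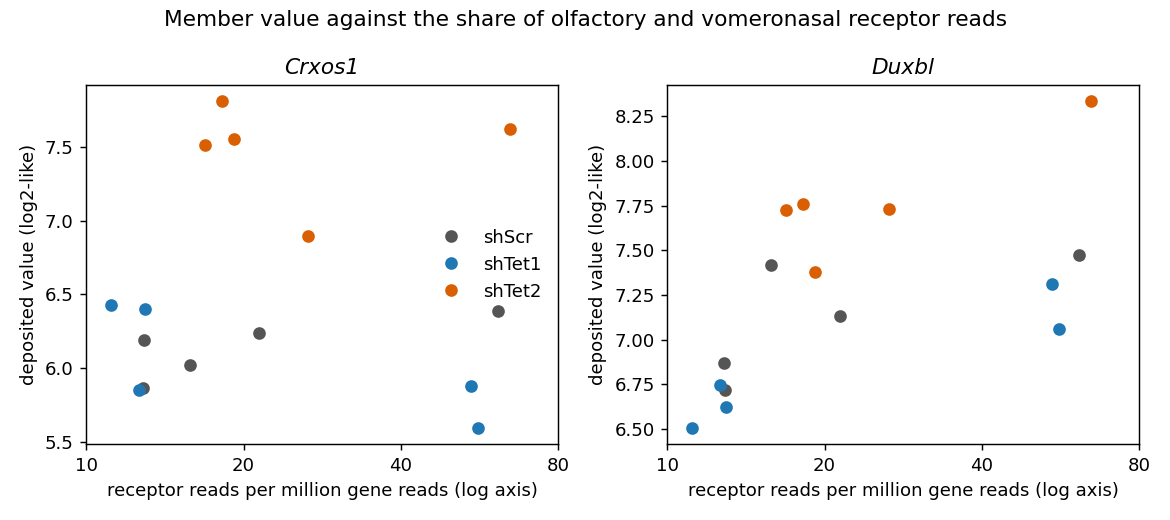
Deposited value (log2-like units, vertical axis) of Crxos1 and Duxbl against the receptor share in RPM of gene reads (horizontal log axis), 1 point a library, coloured by group. In each group a library of high share holds the highest Duxbl value, up to 8.33 in shTet2 replicate 4, and every shTet2 library is above every other library for Crxos1.

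Within groups the values of Crxos1 and Duxbl did not move together, with a correlation of -0.15 over the 15 libraries after subtraction of group means. Obox6 correlated with Crxos1 at 0.50, Obox1 at 0.54, Obox5 at 0.45 and Obox3 at 0.09. Duxbl followed Dux at 0.81 and Cphx at 0.63, and both of these also moved with the receptor share, at 0.66 and 0.76, as MERVL-int did at 0.58. The part of this share in these correlations was not tested. The 5 genes whose deviations were most like those of Crxos1, among 12039 genes of sufficient level, were 1110001A16Rik (r = 0.89), Hibch (0.85), Leprot (0.85), Ccdc152 (0.83) and B3gnt5 (0.81). Between shTet2 and shScr they differed by -0.05, 0.12, -0.18, 0.16 and 0.15. For Duxbl they were Zfp947 (0.97), its copy Gm10391 (0.97) and Pfkfb2 (0.94). Such values are the highest of many and describe these libraries. The 4 Obox genes were too low on average for this comparison.

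The neighbours of Crxos1 and other homeobox genes put its values in context. Crx, 2648 bases away, had 9, 8 and 33 reads over shScr, shTet1 and shTet2, and differed by 0.34 between shTet2 and shScr (limma with Benjamini-Hochberg adjusted p = 0.519). Sepw1 on the other side, which encodes a selenoprotein, differed by 0.09 (adjusted p = 0.903, same fit). Of 39 other homeobox genes of oocytes, embryos and ESCs tested, 0 passed the threshold in limma between shTet1 and shScr (8 at an unadjusted p under 0.05, as were 11.8% of all genes), and 0 between shTet2 and shScr (6 unadjusted, against 11.6% of all genes). With the replicate block 1 passed between shTet1 and shScr, Dux, described below. Between shTet2 and shTet1 3 were called, all higher in shTet2. They were Dux (1.27, SE 0.21, Benjamini-Hochberg adjusted p = 0.00126), Otx2, a regulator of epiblast and forebrain (1.01, SE 0.24, adjusted p = 0.0192), and Rhox2a of the reproductive homeobox cluster (0.69, SE 0.17, adjusted p = 0.0298). They are 3 of 39 where 4.24% of all genes were called. Dux kept the threshold in 25 alternative fits. Otx2 lost it in 3 of them (without shTet2 replicate 1, without shTet2 replicate 2, and without the 4 libraries of high receptor share) and Rhox2a in 7 (without shTet1 replicate 1 or 4, without shTet2 replicate 3 or 4, without the 4 libraries, after median centring and after quantile normalisation), with adjusted p-values up to 0.180 and 0.265 in limma. With the block there were 5, the others being Gbx2 (-0.91) and Pou2f1 (-0.61), both lower and named after their values were seen. The median difference of the 39 was 0.07, 0.01 and 0.01 in the 3 comparisons, and that of all genes 0.01, 0.04 and 0.01. For Crxos1, Duxbl and the 4 Obox genes the medians were -0.08, 0.48 and 0.57, and the last 2 carry the choice of genes.

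Dux, the gene to which Duxbl is related, was lower in every shTet1 library than in any shScr library. In normalised reads it had 66.5, 77.8, 82.3, 94.3 and 69.8 with shScr and 21.2, 30.6, 49.8, 64.3 and 31.6 with shTet1. The difference was -0.68 (95% interval -1.11 to -0.24). Its adjusted p by Benjamini-Hochberg was 0.180 in limma, and 0.0324 with the replicate block. For Crxos1 and Obox6 the corresponding intervals given above lay between -0.57 and 0.47. Those of Duxbl (-0.71 to 0.16) and Obox3 (-0.68 to 0.29) reached lower and overlapped more of the Dux interval.

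Genes of the 2-cell-like state are set beside the 6 genes because Dux and Obox genes are studied in that state. Of 31 tested, 0 passed the threshold between shTet1 and shScr in limma, although all 31 were lower in shTet1 and 26 had an unadjusted p under 0.05, where 11.8% of all genes had. Under the replicate block 25 were called, all lower, against 4.8% of all genes. Between shTet2 and shScr 29 of 31 were higher, as were 11077 of all 19490 genes. In limma 25 of 31 had an unadjusted p under 0.05, where 11.6% of all genes had. Under the replicate block 17 were called, all higher, where 840 of all genes were called in either direction. In the main fit 1 was called, where 0.39% of all genes were, namely Tdpoz3. It lost the threshold in 13 of the 15 fits that left out 1 library. Between shTet2 and shTet1 27 of 31 were called, all higher in shTet2, where 4.24% of all genes were called. The list was chosen with earlier results of these data known, so these counts are not independent evidence. The leading 12 were Zscan4b, Zscan4e, Tdpoz3, Gm12794, B020004J07Rik, Usp17l5, Dub1a, Zscan4-ps2, Dub2a, Zscan4f, Zscan4c and Tdpoz4, with differences from 1.75 for Dub2a to 2.39 for Gm12794. Zscan4 genes encode zinc finger proteins of the 2-cell embryo, and several of these families are multi-copy. The median difference of the 31 was -1.01, 0.97 and 1.95 in the 3 comparisons. Crxos1 at -0.11, 1.34 and 1.45 and Duxbl at -0.27, 0.66 and 0.94 are given beside these medians, and the difference between the genes and the list was not tested.

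MERVL-int, the internal part of the retrovirus that marks the 2-cell embryo, came from the separate table of repeats. Its mean was 18.44 ± 0.35 (SD, n = 5) with shScr, 17.01 ± 1.09 with shTet1 and 19.17 ± 0.24 with shTet2. The difference between shTet2 and shTet1 was 2.15 (SE 0.38, limma with Benjamini-Hochberg adjusted p = 0.0145 over repeat classes), and its long terminal repeat MT2_Mm differed by 1.99 (adjusted p = 0.0145). Neither differed from shScr past the threshold. After subtraction of group means over the 15 libraries, the correlation of MERVL-int was -0.27 with Crxos1, 0.04 with Obox6 and 0.56 with Duxbl, whereas it was 0.90 with the mean of the 2-cell-like genes.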

How the data were processed

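Directional rRNA-depleted RNA-seq libraries were sequenced with single-end reads of 75 bases. The authors trimmed reads with Trim Galore 0.3.3, aligned them to mm9 with TopHat2 2.0.9 keeping 1 location per read, counted reads per gene and per repeat class in Seqmonk, and deposited DESeq2 variance-stabilised values close to log2 units. RNA was extracted by either of a pair of kits, and which library had which is not given in the sources used here.

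The 6 genes and the gene lists were chosen with earlier results of these data known. Groups came from the hairpin label. Differences were tested on the deposited log2 values with limma 3.58.1 (R 4.3.3; trended variance) in 1 fit of all 15 libraries, two-sided, with Benjamini-Hochberg adjustment over the 19490 genes above the table minimum in at least 5 libraries and a threshold of 0.05. The fit was tested on simulated reads drawn independently for each library, with changes placed only in genes of higher level. That setting does not cover Obox1, Obox3 and Obox5 or the division between replicates, and nothing is read from it here. Exact permutation tests used SciPy 1.17.1. The transformation was undone, and 100% of values above the minimum then lay within 0.1 of a whole read. These recovered reads, divided by the size factors, are called normalised reads. Sequences came from the mm9 genome with GENCODE M1. Promoters were the 250 bases before each annotated start.

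Named genes were the 6 genes, Obox2, Tet1, Tet2, up to 12 genes a list with an adjusted p under 0.05 in any comparison by smallest p, the genes most like each in deviations from group means (those averaging at least 2 units above the minimum), the annotated neighbours of Crxos1, and MERVL-int and MT2_Mm. Cphx and Gm10394 were also named after their values were seen. Same-numbered libraries deviated together between shTet1 and shScr (correlations 0.374 to 0.657) and between shTet2 and shTet1 (0.330 to 0.731). Of 10 libraries, 9 and 7 in these comparisons correlated best with their own number. The division between replicates described above also runs by number, and its part in these correlations was not tested. No label states pairs. The fit of all libraries used the group alone, and the replicate number entered as a block only in an alternative fit.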

Additional observations from a re-analysis of the deposited data

Results flagged for a closer look

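Obox3 in shTet2 replicate 3 stood apart from its group. It had 0 reads (4.25), whereas the next library stood at 5.01, and this gap was 0.759 of the whole range of the group, above the 95% critical value of Dixon's test for 5 libraries. It was the only such value among the 18 sets of 5 libraries examined (6 genes in 3 groups). Chance flags about 1 in 20 sets of normally distributed values. Several of these sets have ties at 0 reads, and the flagged value is itself 0 reads, so that rate need not hold here. That library had the lowest depth of all, and Obox1, Obox2 and Obox5 were at 0 in it as well. The part of depth was not tested.

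The values assigned to Duxbl differed by 0.94 in the direct test of shTet2 against shTet1 (limma with Benjamini-Hochberg adjusted p = 0.0133). They were higher in 5 of 5 same-numbered libraries, which follows from the lack of overlap between the groups. Effects of hairpin and depletion cannot be told apart, and 89.0% of the Duxbl stretches also occur in Gm10391 and Gm10394. Duxbl had been listed with results of these libraries known, so this p-value is not independent evidence.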

How the results depend on the processing

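Of the 6 genes, 0 were called between shTet1 and shScr under every alternative. Between shTet2 and shScr 1 was called, except 2 with the replicate block (Crxos1 and Duxbl), and between shTet2 and shTet1 2 were called, or 3 in 4 alternatives. Crxos1 was 1 of the genes called in each of these last 2 comparisons, and since its choice rested on the shTet2 libraries nothing is read from that. Leaving out 1 library gave 0 to 0, 1 to 1 and 2 to 3. Between shTet1 and shScr several small differences changed sign. Those of Crxos1, Obox1 and Obox6 had opposite signs within replicates 1 and 2 and within replicates 3 to 5, as given above. Crxos1 was at 0.15 without the 4 libraries of high receptor share. Obox6 was at 0.0937 on log2(reads + 1) and at 0.0943 without those 4 libraries, and ran from -0.32 to 0.0986 when 1 library was left out. Obox5 then ran from -0.11 to 0.0635. Within replicates 3 to 5 the sign also changed for Obox3 and Obox5 between shTet2 and shScr (-0.0686 and -0.0961) and for Obox5 between shTet2 and shTet1 (-0.0768). Obox6 between shTet2 and shTet1 crossed the threshold in 4 of 25 fits (limma with Benjamini-Hochberg adjusted p from 0.0175 to 0.359). The cause was not tested. The replicate numbers were not used as pairs in the main fit of any comparison. Between shTet2 and shScr, replicate 3 of the 2 groups correlated at only 0.00789. Of 10 libraries 7 correlated best with their own number, as many as between shTet2 and shTet1, and pairs in the other 2 comparisons would imply pairs here too. The block would then add Duxbl (difference 0.66) to the genes called. The choice of genes used this contrast, so nothing is read from that call.

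Counts over all genes moved more. Between shTet1 and shScr 14 genes became 3 with only the 2 groups compared, 12 after median centring, 22 after quantile normalisation, 56 with array weights, 935 with the replicate block, 1 without the 4 libraries, and 1 to 171 without 1 library. The 76 between shTet2 and shScr became 39 after median centring (5 higher, 34 lower, against 43 and 33), 45 after quantile normalisation (16 higher, 29 lower), 283 with array weights, 840 with the block, 48 on log2(reads + 1), 13 without the 4 libraries and 10 to 99 without 1. The 827 between shTet2 and shTet1 became 1246 with array weights, 2178 with the block, 345 without the 4 libraries and 512 to 902 without 1.

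For the 39 homeobox genes the counts with the replicate block were 1, 3 and 5 in the 3 comparisons (Otx2, Gbx2 and Pou2f1 between shTet2 and shScr), array weights gave 2 between shTet2 and shScr (Otx2 and Pou2f1), removal of the 4 libraries 1 between shTet2 and shTet1, and removal of 1 library 0 to 0, 0 to 1 and 2 to 5. For the 31 genes of the 2-cell-like state, array weights gave 3 and the block 25 between shTet1 and shScr, with 0 to 14 without 1 library. Between shTet2 and shScr there were 14 with only the 2 groups compared, 4 with array weights and 17 with the block. There were 0 with genes above the minimum in at least 1 library, after median centring, after quantile normalisation, on log2(reads + 1) and without the 4 libraries, and 0 to 6 without 1. Between shTet2 and shTet1 25 to 29 were called without 1 library. Libraries whose removal moved the counts by over 1.5 times included shTet1 replicate 5 (171 genes and 14 of the 2-cell-like list between shTet1 and shScr, and 5 homeobox genes between shTet2 and shTet1). The values of Obox1, Obox3 and Obox5 rest on 0 to 12 reads a library.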
